A study of Mus musculus with 8 samples.

Results

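The 37 genes described here are the transcripts of the mouse mitochondrial genome, taken as every row of the expression table whose symbol begins with mt-, out of 51886 gene symbols. They comprise 13 messenger RNAs, 2 ribosomal RNAs and 22 transfer RNAs, which is the full set of 37 that the annotation GENCODE M21 places on the mitochondrial chromosome. The study compared peri-ovulatory granulosa cells, the somatic cells that line the ovarian follicle, from mice lacking the progesterone receptor isoform PGR-A (PGR-A KO, 4 libraries) and from wild-type mice of the same strain (WT, 4 libraries). Mice of both groups were 21 to 27 days old and received 5 IU of eCG, a hormone that drives follicle growth, then 5 IU of hCG, which triggers ovulation, 46 h later. Granulosa cells were taken 8 h after hCG, and each library pooled the cells of 2 to 3 mice. The sources used here state neither how the PGR-A allele was made nor whether the groups were littermates.

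Mitochondria carry a small circular genome whose genes lie nearly end to end and without introns. Each strand is transcribed as a long precursor, from which the transfer RNAs are cut out, and this frees the messenger and ribosomal RNAs that lie between them. The messenger RNAs encode membrane subunits of the respiratory chain complexes I, III and IV and of the ATP synthase, complex V. All other subunits of these complexes, and the proteins that copy, transcribe and process the mitochondrial genome, come from nuclear genes. Granulosa cells use mitochondria for ATP and for the first step of steroid synthesis, which makes progesterone after the ovulatory signal.

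The layout of the genome (GENCODE M21, mm10 assembly) bears on every value below. Of the 13 messenger RNAs, 12 are read from the plus strand and 1, mt-Nd6, from the minus strand, and 6 have a transfer RNA gene as their neighbour on both sides. Their annotated lengths run from 204 bases for mt-Atp8 to 1824 bases for mt-Nd5, and the transfer RNAs have 59 to 75 bases. The genes mt-Atp8 and mt-Atp6 overlap by 43 bases, mt-Nd4l and mt-Nd4 by 7 bases, and mt-Nd5 and mt-Nd6, on opposite strands, by 14 bases. The whole of mt-Atp8 (chrM:7766-7969, plus strand), the first 80 bases of mt-Atp6 (chrM:7927-8006, plus strand) and the last 60 bases of mt-Nd4l (chrM:10114-10173, plus strand) are shown because reads from the overlaps, in capitals, belong to either gene of the pair.
mt-Atp8: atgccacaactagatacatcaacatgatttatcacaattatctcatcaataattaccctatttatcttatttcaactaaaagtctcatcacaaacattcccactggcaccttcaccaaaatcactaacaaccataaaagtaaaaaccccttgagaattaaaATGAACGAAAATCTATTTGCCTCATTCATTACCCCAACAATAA
mt-Atp6 start: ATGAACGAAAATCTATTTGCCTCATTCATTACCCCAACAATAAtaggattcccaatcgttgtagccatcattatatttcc
mt-Nd4l end: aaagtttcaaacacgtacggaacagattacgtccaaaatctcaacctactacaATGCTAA

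A further 3 messenger RNAs, mt-Co3, mt-Nd4 and mt-Cytb, have a length that is not a multiple of 3 and end in a lone T, in capitals below. Such ends are known to become a stop codon only when the poly(A) tail is added, and the libraries were made from polyA RNA. The sequences are the last 30 bases of each gene on the plus strand, at chrM:9361-9390, chrM:11515-11544 and chrM:15259-15288.
mt-Co3 end: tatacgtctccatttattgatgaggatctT
mt-Nd4 end: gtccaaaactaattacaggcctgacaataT
mt-Cytb end: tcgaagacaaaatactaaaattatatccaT

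Values are TPM, which divide the reads of a gene by its length and scale each library to a fixed total. The 8 libraries summed to between 994519 and 997022 TPM, no pair of them was identical, and the log2 correlation of pairs ran from 0.970 to 0.991. Sequencing depth cannot be read from TPM and is unknown, so no counting interval can be given. The spread behind each permutation p-value is that between pools of mice. For limma p-values and SEs, each gene's spread between pools is drawn toward a trend fitted over all genes. All 10 granulosa markers had a mean of at least 1 TPM, and their summed level was 4557 to 5742 TPM in PGR-A KO and 4891 to 7306 TPM in WT. Summed macrophage, endothelial, theca, surface epithelium and muscle markers lay between 22.0 and 271 TPM in each library and overlapped between the groups. The gene-level value of Pgr, 2.96 TPM in PGR-A KO and 1.15 TPM in WT, cannot separate the receptor isoforms and so checks no label. The leading principal component (34.9% of the variance) did not fully separate the genotypes, and its relation to genotype was not tested. PGR-A KO 1, 2 and 4 and WT 1 lay on one side of it. PGR-A KO 3 and WT 2, 3 and 4 lay on the other.

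The mitochondrial messenger RNAs were the most abundant transcripts of these granulosa cells, and no difference between genotypes in their levels passed the test. Ranked by mean TPM over all genes, 9 of the 13 were among the 10 highest and 11 among the 20 highest, and mt-Atp8 was the highest gene in each of the 8 libraries. The order was mt-Atp8, mt-Atp6, mt-Co1, mt-Co3, mt-Co2, mt-Nd4l, mt-Cytb, mt-Nd1, mt-Nd4, mt-Nd3, mt-Nd2, mt-Nd5 and mt-Nd6. Each neighbouring pair in it kept its order in 8 of 8 libraries, apart from mt-Co1 above mt-Co3, which held in 6, and mt-Co3 above mt-Co2, which held in 4. In TPM as listed, the 3 cytochrome c oxidase transcripts therefore lay within the spread between libraries of each other. With its nuclear copy Gm29216 added, described below, mt-Co1 came to 32164 TPM in PGR-A KO and 32231 TPM in WT. The copy has 492 bases against 1545, so this sum is not a level of mt-Co1. How reads were split between gene and copy is unknown. The ribosomal RNAs stood far lower, at 260 TPM for mt-Rnr1 and 198 TPM for mt-Rnr2 on average, and mt-Nd6 lower still at 83.9 TPM.

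**Figure D1:**
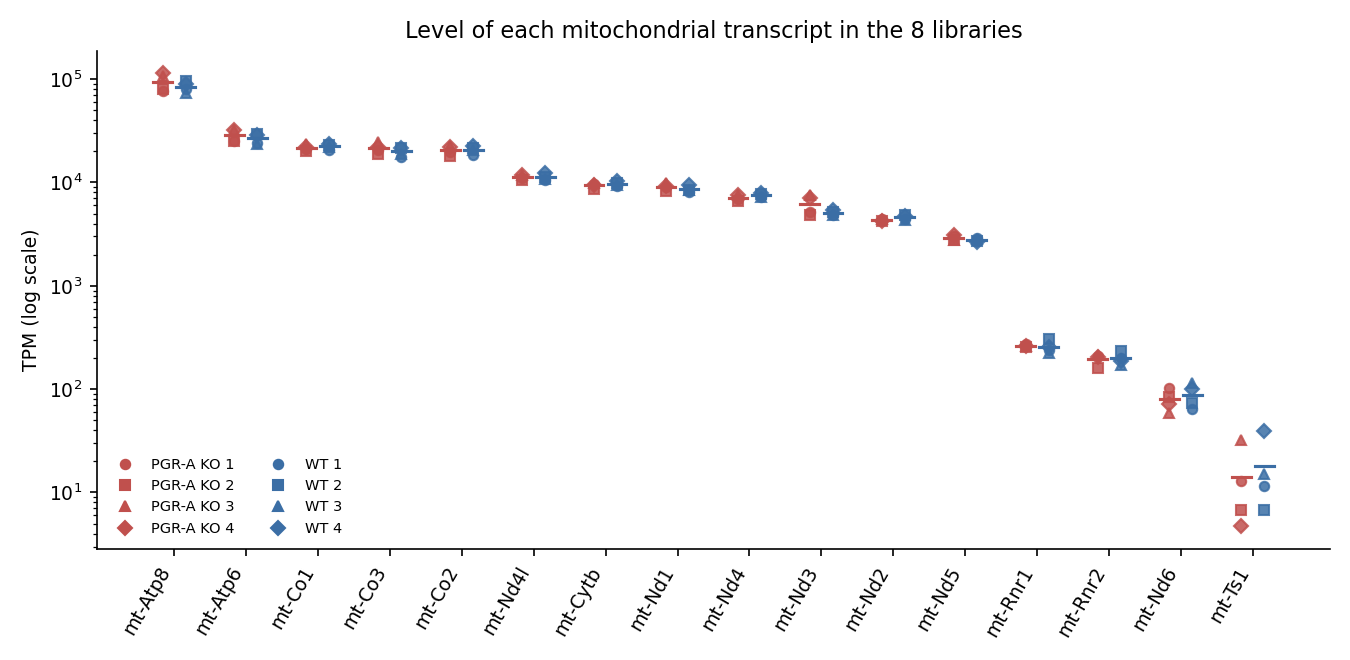
Level of each mitochondrial transcript in TPM (log axis), with a point for each library, marked by replicate, and a bar for each group mean, for the 13 messenger RNAs, both ribosomal RNAs and mt-Ts1. The PGR-A KO and WT points overlap for each of the 16 transcripts, and mt-Atp8 lies above the rest, at 73843 TPM or more in every library.

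Of the 37 genes, 17 passed the filter of at least 1 TPM in at least 4 libraries and were tested with limma on log2(TPM + 1): the 13 messenger RNAs, both ribosomal RNAs, mt-Tl1 and mt-Ts1. Among all genes tested, 2 of 14472 passed the adjusted threshold of 0.05 (0.0138%), and none of the 17 members did. None of the 17 reached an unadjusted limma p under 0.05 either, against 6.31% of all genes tested, and none had groups that did not overlap, against 3.42% of all genes (0.601% higher and 2.82% lower in PGR-A KO). With 17 members, such shares come to about a single gene, so these counts say little about the members as a set. The mean was higher in PGR-A KO for 7 members and lower for 10, with a median log2 change of -0.01 beside -0.02 over all genes. Among the 13 messenger RNAs, 6 had a higher and 7 a lower mean, and their log2 changes ran from -0.15 for mt-Nd6 to 0.24 for mt-Nd3. The other 20 members, all transfer RNAs, fell below the filter.

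The 37 genes together held 23.8% ± 3.04 (SD, n = 4) of the library TPM in PGR-A KO and 22.6% ± 1.93 (SD, n = 4) in WT. In PGR-A KO the share was 21.4%, 21.0%, 26.4% and 26.5% in libraries 1 to 4, and in WT it was 20.9%, 24.4%, 20.9% and 24.1%. Both groups thus held libraries near 21% and libraries of 24% or more, and the groups overlapped (exact 2-sided permutation p = 0.514, adjusted p = 0.657 over 3 shares). The smallest possible exact permutation p is 0.0286, so a share alone could not pass after this adjustment. In pooled cells a lower share of cells rich in a transcript and a lower level per cell cannot be told apart. Summed oocyte markers, from a cell type known for its many mitochondria, were 757 to 1352 TPM in PGR-A KO and 548 to 1036 TPM in WT. All 9 oocyte markers measured had a higher mean in PGR-A KO (exact permutation p of the sum = 0.371), and their part in the share was not tested. A higher mean in PGR-A KO was found for 1 of 10 granulosa markers, whose sum was 5024 ± 569 against 6042 ± 1073 TPM (SD, n = 4 each; exact permutation p = 0.143). It was found for 1 of 9 macrophage and 0 of 7 surface epithelium markers, and the part of these lists was not tested either. Summed erythroid markers, from a cell type that loses its mitochondria, were 3661 to 6319 TPM in PGR-A KO and 1732 to 11370 TPM in WT, with their part also untested.

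Most of the share came from few genes. mt-Atp8 alone held 9.46% ± 1.85 (SD, n = 4) of library TPM in PGR-A KO and 8.50% ± 1.00 (SD, n = 4) in WT. Without it the other 36 members held 14.4% ± 1.29 and 14.1% ± 1.02 (SD, n = 4 each). By complex, the ATP synthase pair held 12.3% of library TPM in PGR-A KO and 11.2% in WT, and the cytochrome c oxidase trio 6.41% and 6.33%. The 7 complex I transcripts held 4.11% and 4.02%, and mt-Cytb, the only member of complex III, 0.947% and 0.978%. For scale, the 10 highest genes outside the mitochondrial genome held 5.05% and 4.95% together. These include Gm29216, a near-identical nuclear copy of part of mt-Co1 described below, at 10458 and 9851 TPM in PGR-A KO and WT. PGR-A KO 3 and 4 had the highest shares of all members, and mt-Atp8 in these libraries was 10.7% and 11.4%, the highest of the 8. With mt-Atp8 left out, the highest share was again that of PGR-A KO 3, at 15.7%, but PGR-A KO 4 at 15.1% lay beside WT 4 at 15.1%.

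**Figure D2:**
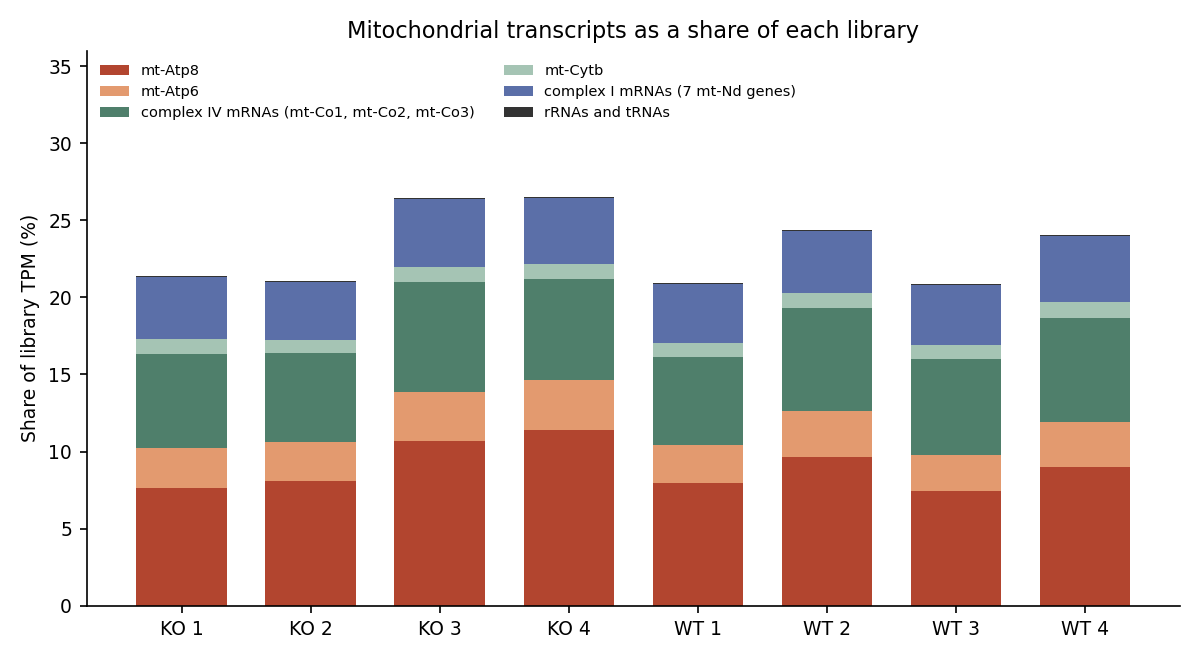
Share of library TPM (%) in each library, stacked as mt-Atp8, mt-Atp6, the complex IV messenger RNAs, mt-Cytb, the complex I messenger RNAs, and the ribosomal and transfer RNAs. The total runs from 20.9% to 26.5%, and the mt-Atp8 segment from 7.41% in WT 3 to 11.4% in PGR-A KO 4.

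mt-Atp8 encodes a small subunit of the ATP synthase membrane sector, and it lies beside mt-Atp6, which encodes the subunit that forms the proton channel; both are known to be translated from a shared messenger RNA. mt-Atp8 stood at 76243, 80541, 106407 and 113611 TPM in PGR-A KO 1 to 4 and at 79419, 96227, 73843 and 89406 TPM in WT 1 to 4. mt-Atp6 stood at 25271, 25003, 31860 and 32070 TPM in PGR-A KO and at 24225, 29709, 23814 and 29072 TPM in WT. In both genes PGR-A KO 3 and 4 were the highest of the 8 libraries, while PGR-A KO 1 and 2 lay among the WT values. The log2 change was 0.14 (SE 0.23) for mt-Atp8 and 0.09 (SE 0.17) for mt-Atp6, with limma adjusted p of 0.946 and 0.950. The ratio of mt-Atp8 to mt-Atp6 was 3.23 ± 0.168 (SD, n = 8) in TPM and ran from 3.02 in PGR-A KO 1 to 3.54 in PGR-A KO 4.

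The height of mt-Atp8 depended on the division by length. Its 204 bases compare with 681 bases of mt-Atp6. Multiplying each TPM by its annotated length brought the ratio of mt-Atp8 to mt-Atp6 to 0.967 ± 0.0504 (SD, n = 8). On that scale mt-Atp8 was 12.9% ± 1.54 (SD, n = 4) of the 13 messenger RNAs in PGR-A KO and 11.9% ± 0.804 (SD, n = 4) in WT, against 39.5% ± 3.01 and 37.7% ± 1.70 in TPM. It passed from rank 1 to rank 3, below mt-Co1, with 22.7% and 23.9%, and mt-Atp6, with 13.1% and 12.5%. The effective lengths of the quantifier are unknown here, so how much of the division this undoes is unknown too. With 100 bases taken off each length as a stand-in the ratio of mt-Atp8 to mt-Atp6 became 0.578 ± 0.0301, and with 150 bases 0.328 ± 0.0171 (SD, n = 8 each). The share of a short gene on this scale therefore depended strongly on the length assumed.

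The 13 messenger RNAs held 11.8% ± 1.55 (SD, n = 4) of all TPM times length in PGR-A KO and 11.5% ± 1.10 (SD, n = 4) in WT, against 23.8% and 22.5% of TPM (exact permutation p of the former = 0.657). mt-Atp8 on its own held 1.54% ± 0.356 and 1.37% ± 0.184 (SD, n = 4 each). These shares rest on 1 annotated length a gene for the 95.2% of symbols with a GENCODE M21 length. With the longest transcript of each gene as its length, an option chosen after the data were seen, they were 6.54% in PGR-A KO and 6.30% in WT.

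No other gene of similar length came near the level of mt-Atp8. Of 4106 other genes whose longest transcript has at most 204 bases, 3769 were listed at 0 in all 8 libraries, 135 had a mean of at least 1 TPM and 5 of at least 100 TPM. Genes without reads show nothing of how length acts on TPM. The highest of them, Gm14303, had a mean of 663 TPM, followed by Gm28900 with 453 TPM and the small cytoplasmic RNA Bc1 with 430 TPM. Between 205 and 297 bases, the range up to mt-Nd4l, 6 of 1584 genes had a mean of at least 100 TPM, the highest being Gm10443 with 925 TPM. Among the 13 messenger RNAs, Spearman's rho of length with mean TPM was -0.27, -0.08 without mt-Atp8 and -0.31 without mt-Atp8 and mt-Nd6. These points come from the same libraries and are no independent replicates.

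**Figure D3:**
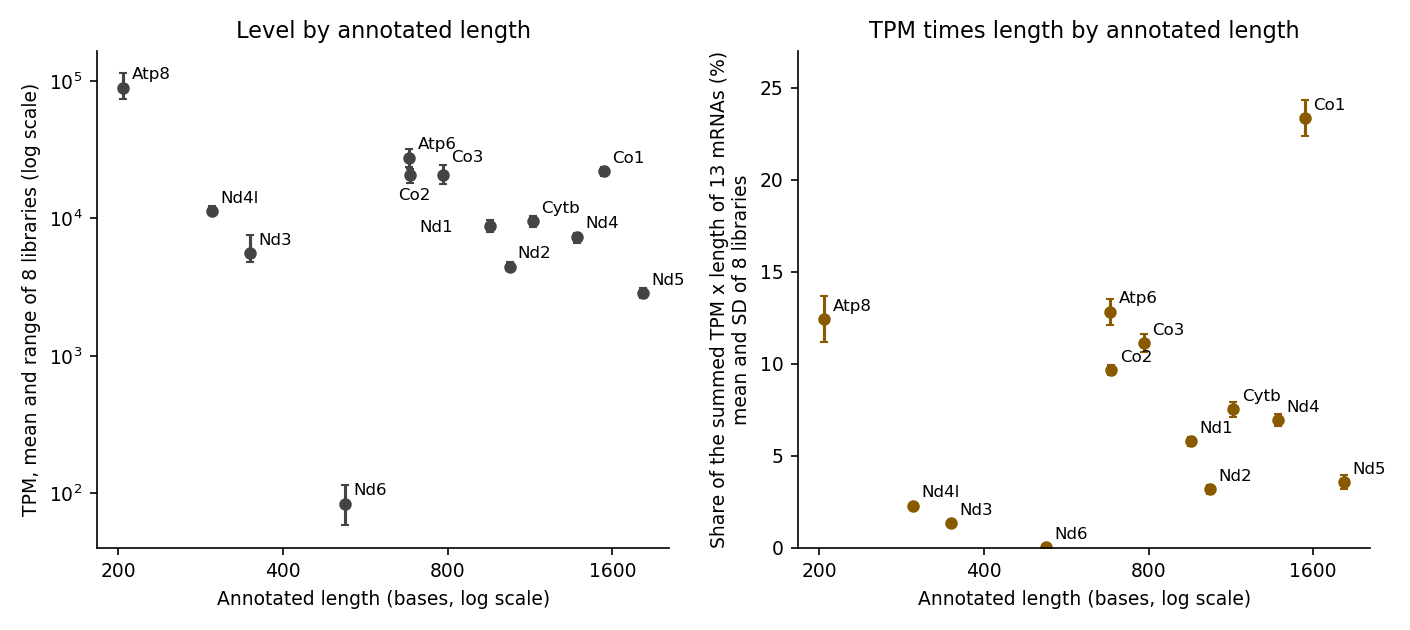
Left, mean TPM of the 13 messenger RNAs (log axis) by annotated length in bases (log axis), with bars from the lowest to the highest library. Right, each one's share of their summed TPM times length (%), mean and SD of 8 libraries. mt-Atp8 is at the top on the left, while on the right it lies beside mt-Atp6 and below mt-Co1.

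Complex IV, cytochrome c oxidase, passes electrons to oxygen, and its 3 mitochondrial subunits form its catalytic core. mt-Co1 stood at 21110, 20271, 23564 and 21880 TPM in PGR-A KO 1 to 4 and at 20679, 22900, 22208 and 23733 TPM in WT 1 to 4. It was among the steadiest members, with its highest library 1.17 times its lowest. mt-Co2 ran from 18040 to 22706 TPM in PGR-A KO and from 18434 to 22316 TPM in WT, and mt-Co3 from 18973 to 24636 TPM and from 17733 to 21649 TPM. mt-Cytb, the heme-bearing subunit of complex III, ran from 8686 to 9913 TPM in PGR-A KO and from 9253 to 10409 TPM in WT. The log2 changes of these 4 genes lay between -0.05 for mt-Cytb and 0.11 for mt-Co3.

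The complex I transcripts encode the membrane arm of NADH dehydrogenase. mt-Nd4l stood at 11022, 10531, 11677 and 11699 TPM in PGR-A KO 1 to 4 and at 10613, 11311, 10853 and 12381 TPM in WT 1 to 4. mt-Nd4, which follows it on the same strand, stood at 6851, 6606, 7571 and 7543 TPM in PGR-A KO and at 7306, 7794, 7303 and 7886 TPM in WT. Neither gene separated the groups, with log2 changes of -0.01 (SE 0.11) and -0.09 (SE 0.10). mt-Nd4l, with 297 bases, is the next shortest messenger RNA after mt-Atp8, and its ratio to mt-Nd4 was 1.53 in TPM but 0.330 in TPM times length. mt-Nd1 had a mean of 9072 TPM in PGR-A KO and 8613 TPM in WT, mt-Nd2 of 4321 and 4592 TPM, and mt-Nd5 of 2910 and 2786 TPM.

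mt-Nd3 had the lowest limma p of the members. Its level was 5180, 4811, 7508 and 7000 TPM in PGR-A KO 1 to 4 and 4890, 5165, 4886 and 5426 TPM in WT 1 to 4. PGR-A KO 3 and 4 were above all other libraries, while PGR-A KO 2 was the lowest of the 8, so the groups overlapped. The log2 change was 0.24 (SE 0.16), with an unadjusted limma p of 0.158 and a limma adjusted p of 0.834. With quantile normalization it was 0.06, and with a library left out it ran from 0.14 to 0.35, and it did not pass in any of these.

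mt-Nd6 is the only messenger RNA of the minus strand and was the least abundant. Its level was 103, 84.5, 58.5 and 71.8 TPM in PGR-A KO 1 to 4 and 64.6, 73.1, 115 and 101 TPM in WT 1 to 4. The libraries with the lowest values, PGR-A KO 3 and WT 1, came from different groups, and the log2 change was -0.15 (SE 0.21, limma adjusted p = 0.936). Relative to the other 12 messenger RNAs it held 0.000372 of their summed TPM. Its G content was 28.1% against 5.88% to 16.1% in the plus-strand messenger RNAs, and its C content 5.97%. The kit marks strand, but the sources used here do not state whether the counting used strand, so reads of the opposite strand at this site cannot be told apart from mt-Nd6.

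Of the 12 plus-strand messenger RNAs, 11 varied together between libraries of the same group, and mt-Nd5 did not vary with them. After subtraction of the group means, all 55 pairs of the 11 had a positive correlation over the 8 libraries, with r from 0.14 to 0.97 and a median of 0.83. mt-Nd5 had a negative correlation with each of the 11, with r from -0.45 to -0.07. mt-Nd6, of the minus strand, had a positive correlation with 2 of the 12 and a median r of -0.14. These are descriptions, since the genes share the library, its scaling and, for overlapping pairs, reads. PGR-A KO 2 held the lowest value for 6 of the 13 messenger RNAs, and PGR-A KO 3 and WT 4 held the highest for 4 each. Relative to its mean, the spread over the 8 libraries was 24.3% for mt-Nd6, 18.6% for mt-Nd3, 16.4% for mt-Atp8 and 12.4% for mt-Atp6, down to 5.02% for mt-Nd2.

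The ribosomal RNAs form the RNA core of the small (mt-Rnr1) and large (mt-Rnr2) mitochondrial ribosome subunits. In libraries of polyA RNA they held 0.0462% ± 0.00281 (SD, n = 4) of TPM in PGR-A KO and 0.0457% ± 0.00615 (SD, n = 4) in WT. mt-Rnr1 stood at 271, 258, 263 and 259 TPM in PGR-A KO 1 to 4 and at 241, 306, 223 and 255 TPM in WT 1 to 4. mt-Rnr2 stood at 210, 162, 215 and 203 TPM in PGR-A KO and at 200, 235, 173 and 186 TPM in WT. The WT libraries enclosed all PGR-A KO values of mt-Rnr1, and the log2 changes were 0.05 (SE 0.10) for mt-Rnr1 and -0.01 (SE 0.12) for mt-Rnr2.

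Of the 22 transfer RNAs, which carry amino acids to the mitochondrial ribosome, 19 were listed at 0 in every library. A listed 0 may also be an estimate that failed. mt-Ts1 (chrM:6870-6938, minus strand), a serine transfer RNA, was the only one above 0 in all 8 libraries. It stood at 12.9, 6.75, 32.0 and 4.72 TPM in PGR-A KO 1 to 4 and at 11.6, 6.83, 15.2 and 39.2 TPM in WT 1 to 4. Its log2 change of -0.42 (SE 0.61, limma adjusted p = 0.936) was the largest of the members in size, and its own libraries differed up to 8.32-fold. The gene lies on the strand opposite to mt-Co1 and overlaps its end by 3 bases. Its 69 bases are shown, without capitals, to give the scale on which these lowest values rest.
mt-Ts1: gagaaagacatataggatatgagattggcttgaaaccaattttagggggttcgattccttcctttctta

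The leucine transfer RNA mt-Tl1, between mt-Rnr2 and mt-Nd1, was above 0 in 4 libraries: 2.30 TPM in PGR-A KO 3, 5.86 TPM in PGR-A KO 4, 5.79 TPM in WT 1 and 3.39 TPM in WT 4. The glutamate transfer RNA mt-Te was above 0 in 2 libraries, at 3.38 TPM in PGR-A KO 2 and 6.83 TPM in WT 2. mt-Te and mt-Ts1 both have 69 bases, and in WT 2 they held the same value, while in PGR-A KO 2 the value of mt-Ts1 was 2.00 times that of mt-Te. Such low and stepped values carry little precision, and no transfer RNA passed the test.

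The balance between mitochondrial transcripts, which does not depend on how a library is scaled, was compared between genotypes in 9 ratios, none of which passed. The lowest p was that of mt-Nd4l to mt-Nd4, at 1.61, 1.59, 1.54 and 1.55 in PGR-A KO 1 to 4 and 1.45, 1.45, 1.49 and 1.57 in WT 1 to 4. Only WT 4 reached into the PGR-A KO range (exact 2-sided permutation p = 0.0857, adjusted p = 0.643 over 9 ratios). The ratio of mt-Nd1 and mt-Nd2, near the start of the plus-strand transcript, to mt-Nd5 and mt-Cytb, near its end, was 1.07 ± 0.0305 (SD, n = 8; exact permutation p = 0.143, adjusted p = 0.643). The messenger RNAs of complex I summed to 0.638 ± 0.0207 (SD, n = 8) of those of complex IV, mt-Cytb to 0.151 ± 0.00756 and mt-Atp6 to 0.434 ± 0.0294. The ratio of mt-Rnr2 to mt-Rnr1 was 0.762 ± 0.0630, and PGR-A KO 2 was lowest at 0.626. The smallest p that 4 against 4 libraries allow is 0.0286, so a ratio alone could not pass after adjustment over 9.

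As a share of the 13 messenger RNAs, mt-Nd4 was 3.03% ± 0.191 (SD, n = 4) in PGR-A KO and 3.39% ± 0.155 (SD, n = 4) in WT, the lowest p of 13 shares (exact permutation p = 0.0571). The next was mt-Nd3, at 2.56% ± 0.242 and 2.28% ± 0.106 (SD, n = 4 each; exact permutation p = 0.0857). Both had an adjusted p of 0.478 over the 13 shares, and none of the 13 passed. As with the ratios, a share alone could not pass after this adjustment. Shares within a fixed total are not independent, since a higher mt-Atp8 share lowers all others.

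**Figure D4:**
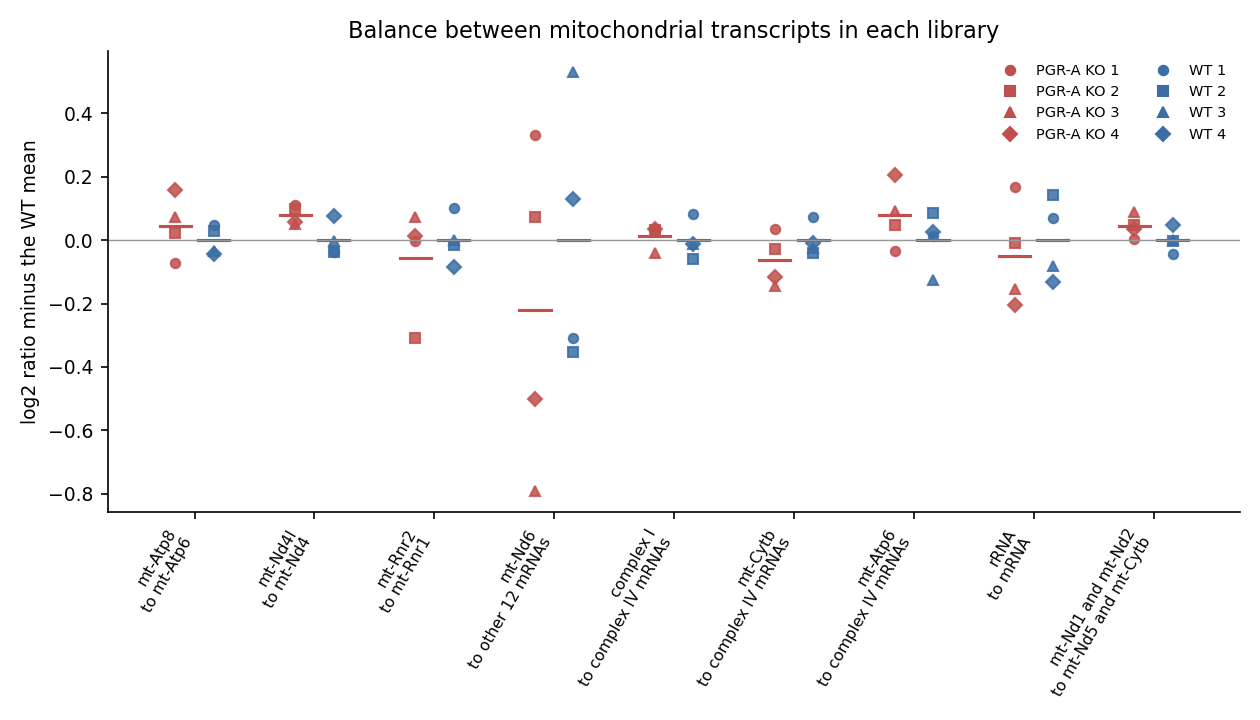
The 9 ratios between mitochondrial transcripts in each library, as log2 ratio minus the WT mean, with a point for each library and a bar for each group mean. The groups overlap in all 9 ratios, and the widest spread is that of mt-Nd6 to the other 12 messenger RNAs.

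Stretches of the mitochondrial genome are also present in the nuclear genome, and reads from them can be assigned to either. A search of the GENCODE M21 transcripts found 7 nuclear pseudogenes with at least 99% identity to a member over at least 90% of their length, all on the minus strand of chromosome 1 (mm10, from 24611535 to 24616197). They are copies of mt-Nd4, mt-Nd4l, mt-Nd3, mt-Co3, mt-Atp6, mt-Co2 and mt-Co1, and no such copy of mt-Atp8 was found among the annotated transcripts. Sequence between the annotated copies was not analysed here. Together they held 1.23% ± 0.0684 (SD, n = 4) of library TPM in PGR-A KO and 1.18% ± 0.127 (SD, n = 4) in WT. A further 4 copies with at least 95% identity had a mean of at most 2.51 TPM in either group.

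The values of these copies were very uneven. Gm29216, a copy of the last part of mt-Co1, had 10458 ± 646 and 9851 ± 941 TPM in PGR-A KO and WT (SD, n = 4 each), rank 7 of all genes and 46.1% of the mt-Co1 level. Gm28438, a copy of mt-Nd3, had 1550 ± 194 and 1431 ± 316 TPM, or 26.6% of mt-Nd3. In contrast Gm10925, identical to the first 678 bases of mt-Atp6, was listed at 0 in all 8 libraries, and Gm28439, identical to the first 876 bases of mt-Nd4, in 7 of them. Gm28661, a copy of mt-Co2, was at 0 in 6 libraries, and Gm28437, a copy of mt-Co3, ran from 4.23 to 46.2 TPM. The copies with high values were those with differences from the mitochondrial gene, apart from Gm10222. Their starts are shown beside the mitochondrial bases to which they align, with the differing bases in capitals and positions counted from base 1 of the mitochondrial gene.
mt-Co1 window: ggTCtAAcCggaAttgttttatc
Gm29216 window: ggATtGGcAggaTttgttttatc
mt-Nd3 window: atTaacctgtacactgttatctt
Gm28438 window: atCaacctgtacactgttatctt

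The mt-Co1 window is chrM:6381-6403 on the plus strand and begins at base 1054 of the gene, and the Gm29216 window is chr1:24616175-24616197 on the minus strand. Within the 492 bases compared, 6 differed: T1056A, C1057T, A1059G, A1060G, C1062A and A1066T. The mt-Nd3 window is chrM:9459-9481 on the plus strand and the Gm28438 window chr1:24613097-24613119 on the minus strand, and T3C was the only difference in 345 bases. All differences of both copies thus lie within the windows shown, near the start of the copy. Reads from the remaining bases are the same in the gene and its copy, so the level of either gene alone is uncertain.

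Gm10222, identical to the first 294 of the 297 bases of mt-Nd4l, was the copy whose groups did not overlap. It stood at 333, 201, 186 and 188 TPM in PGR-A KO 1 to 4 and at 384, 458, 432 and 550 TPM in WT 1 to 4, or 227 ± 71.0 against 456 ± 69.8 TPM (SD, n = 4 each). Its log2 change was -1.04 (SE 0.19), with an unadjusted limma p of 0.000409 and an adjusted p of 0.394, so it did not pass over all genes. The exact permutation p was 0.0286, the smallest the design allows, in a search over 7 copies. Gm10222 was 3.03% of the level of mt-Nd4l, and the sum of both genes had a log2 difference of -0.03 (exact permutation p = 0.629). The sum of mt-Nd3 and Gm28438 had a log2 difference of 0.22 (exact permutation p = 0.171), against 0.24 for mt-Nd3 alone.

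**Figure D5:**
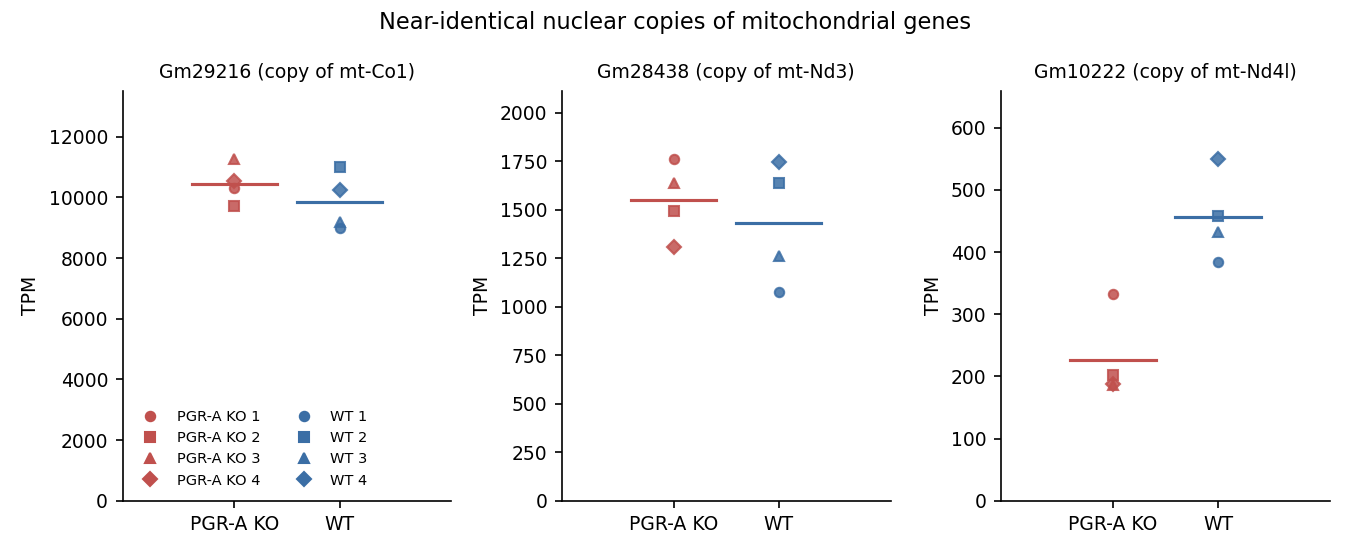
TPM of the 3 near-identical nuclear copies with the highest values, with a point for each library and a bar for each group mean, on axes from 0. The groups overlap for Gm29216 and Gm28438, while for Gm10222 the highest PGR-A KO library, at 333 TPM, lies below the lowest WT library, at 384 TPM.

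In summed TPM, the mitochondrial messenger RNAs exceeded the nuclear-encoded subunits of the same complexes in all 8 libraries. Summed TPM of the mitochondrial subunits was 8.18 ± 0.689 times that of 36 nuclear subunits for complex I, 4.79 ± 0.234 times that of 9 for complex III, 14.6 ± 1.25 times that of 11 for complex IV and 18.1 ± 2.98 times that of 17 for complex V (SD, n = 8 each). The complex V ratio rested mostly on the short mt-Atp8, with a mean of 89462 TPM against 27628 TPM for mt-Atp6. The 17 nuclear subunits summed to 6485 TPM in PGR-A KO and 6446 TPM in WT. Per gene, the median complex I transcript stood at 5608 TPM for the mitochondrial and 125 TPM for the nuclear genes. The exception was mt-Nd6, whose 83.9 TPM lay below that nuclear median and below the highest nuclear subunit, Ndufa6, at 251 TPM. The difference between genotypes did not pass for any of the 4 ratios, with an adjusted p of 0.771 for each. Here too a ratio alone could not pass after adjustment over 4. For complex I the log2 ratio was 3.09 ± 0.135 in PGR-A KO and 2.97 ± 0.0629 in WT (SD, n = 4 each; exact permutation p = 0.2).

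Of the 73 nuclear subunits none passed the adjusted threshold, and at an unadjusted limma p under 0.05 there were 7 lower and 0 higher, beside 5.33% lower and 0.974% higher of all genes tested. Means were lower in PGR-A KO for 30 of 36 subunits of complex I, 7 of 9 of complex III, 8 of 11 of complex IV and 8 of 17 of complex V. Over all genes tested, 42.6% had a higher mean in PGR-A KO. The complex IV count depended on scaling, with 4 of 11 lower after median-of-ratios scaling and 7 of 11 after quantile normalization. Complex I had 29 of 36 lower after each. Over all genes tested, 7504 and 7869 of 14472 had a higher mean after these scalings. In complex I, Ndufa2 had the lowest p, with 143 ± 4.67 TPM against 162 ± 9.48 TPM (SD, n = 4 each, limma adjusted p = 0.774). The lowest p in the other complexes were those of Uqcr11 (222 ± 11.5 against 243 ± 17.6 TPM, limma adjusted p = 0.807), Cox6b1 (336 ± 16.9 against 375 ± 7.56 TPM, limma adjusted p = 0.783) and Atp5g2 (40.3 ± 4.25 against 49.1 ± 2.78 TPM, limma adjusted p = 0.721). Atp5g2 encodes a copy of the ATP synthase ring subunit.

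The nuclear genes that maintain and express the mitochondrial genome were measured at 0.225 to 105 TPM on average. Of 58 such genes, 56 were tested, none passed, and 23 had a higher and 33 a lower mean in PGR-A KO, with a median log2 change of -0.02, beside -0.02 over all genes tested. By role, 4 of 11 transcription genes, 12 of 21 processing genes, 3 of 7 stability genes, 0 of 12 replication genes and 4 of 5 regulators had a higher mean. These counts use the mean of log2(TPM + 1), and the replication gene Top3a, at 10.49 and 10.48 TPM in PGR-A KO and WT, is lower on that scale only. The replication count depended on scaling, with 3 of 12 higher after median-of-ratios scaling and 5 of 12 after quantile normalization. The whole list followed, with 30 and 36 of 56 higher. All genes tested moved the same way, with 7504 and 7869 of 14472 higher after these scalings. In the table as deposited, 6169 of 14472 genes (42.6%) had a higher mean in PGR-A KO.

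Polrmt, the mitochondrial RNA polymerase, had 31.2 ± 3.84 and 31.8 ± 4.06 TPM in PGR-A KO and WT (SD, n = 4 each). Tfam, which packages the genome and starts its transcription, had 48.0 ± 8.51 and 47.0 ± 3.54 TPM (SD, n = 4 each). The helicase gene Twnk had 14.1 ± 1.64 and 14.4 ± 2.03 TPM, and the DNA polymerase gene Polg 44.1 ± 2.23 and 45.3 ± 4.79 TPM (SD, n = 4 each). The log2 changes of these 4 lay between -0.03 and 0.02, inside their standard errors, and the limma adjusted p was 0.961 or more.

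The lowest p of each role were these. Ssbp1, the single-strand binding protein of replication, had 48.3 ± 3.76 TPM in PGR-A KO and 56.4 ± 6.16 TPM in WT (SD, n = 4 each). Its log2 change was -0.22, with an unadjusted limma p of 0.0472 and a limma adjusted p of 0.783. Lrpprc, which stabilises mitochondrial messenger RNAs, had 25.3 ± 2.01 and 31.1 ± 6.0 TPM (log2 change -0.27, limma adjusted p = 0.792). Its libraries were 25.0, 27.3, 26.1 and 22.6 TPM in PGR-A KO and 25.0, 38.4, 33.4 and 27.6 TPM in WT. Hsd17b10, a subunit of the enzyme that trims transfer RNA ends, had 96.3 ± 9.01 and 114 ± 19.0 TPM (limma adjusted p = 0.796). Mrpl12, a ribosomal protein also known to bind the polymerase, had 77.9 ± 5.02 and 72.0 ± 4.51 TPM (limma adjusted p = 0.834), and the regulator Nrf1 34.7 ± 1.93 and 31.4 ± 2.85 TPM (limma adjusted p = 0.807). Ppargc1a, a coactivator of mitochondrial biogenesis, stood at 0.123 to 0.300 TPM over the 8 libraries and was not tested.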

How the data were processed

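PolyA RNA of granulosa cells was sequenced on an Illumina NovaSeq from stranded TruSeq libraries, per the labels' protocols. The authors deposited a table of TPM for 51886 gene symbols, and build mm10 and the tools FastQC, Salmon, limma and edgeR are listed, without versions or roles, in the submitters' processing notes. Not given in the sources used here are the annotation, the effective lengths and the summing of transcripts to genes. Poly(A) selection bears on the ribosomal and transfer RNA values, and the division by length on those of short genes.

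Groups came from the sample titles. The 14472 genes that reached 1 TPM in 4 or more of 8 libraries were fitted by limma 3.58.1 (R 4.3.3) on log2(TPM + 1), with a trend and no covariate, adjusted by Benjamini-Hochberg over all genes tested with a threshold of 0.05. Fold changes on this scale understate the change of low genes. Shares and ratios were compared by exact 2-sided permutation over 70 assignments. The limma fit, but not the other steps, was tested on simulated data. Lengths, positions and sequences are from GENCODE M21 (mm10), matched by symbol for all 37 members, and copies were searched with BLASTN 2.17.0. The planned ratio of transfer to messenger RNAs was not computed, since members are at 0.

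The members, lists and tests were chosen with earlier results of these data known, and the identity limits for nuclear copies after the data were seen. Named by rule were mt-Atp8, mt-Atp6, mt-Nd4l, mt-Nd4, mt-Nd6, both ribosomal RNAs, the member of lowest p, the 3 most abundant, the 3 of largest change, the 3 highest transfer RNAs, 7 genes of the expression machinery, and the lowest p of each role or complex. Other genes named with values, nuclear copies and short genes among them, were chosen by the searches described or after their values were seen. Alternatives were other pseudocounts, filters, scalings, limma options, lengths, a replicate block and each library left out.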

Additional observations from a re-analysis of the deposited data

Results flagged for a closer look

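In 5 of 103 groups of 4 values, the highest or lowest library lay apart from the others by Dixon's criterion. For independent values with a normal spread, chance gives about 1 in 20 groups, or 5.15. These groups share libraries and some hold values of 0, so that rate is only a guide. In PGR-A KO, replicate 3 had a log2 ratio of complex I to complex IV messenger RNAs of -0.697, below the other 3 PGR-A KO libraries. The nuclear copy Gm28439 was at 0.864 TPM in WT 3 and at 0 in the other WT libraries. The copy Gm10222 was at 333 TPM in PGR-A KO 1, above the other PGR-A KO libraries. Gm28661 was at 37.0 TPM in PGR-A KO 1 and at 1.90 TPM in WT 4, and at 0 in the other libraries. With the rest of a group at 0, any value above 0 is flagged.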

How the results depend on the processing

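None of 64 results passed its threshold in the table as deposited or in any of 930 comparisons with an alternative. Part of this was set by the design. A ratio, a share of the 13 messenger RNAs or a share of the library could not pass alone after adjustment, and no sign-flip test could pass. In the comparisons, shares of the library were judged on the unadjusted permutation p. Of the comparisons, 57 turned a direction, 45 of them with a library left out. With median-of-ratios scaling the log2 change was 0.016 for mt-Co2, 0.026 for mt-Nd4l, 0.023 for mt-Rnr2, 0.0065 for Polrmt and 0.012 for Twnk. Scaled to nuclear genes it was 0.0081 for mt-Co2, 0.019 for mt-Nd4l, 0.015 for mt-Rnr2 and 0.0049 for Twnk. With quantile normalization it was 0.025 for Twnk and 0.0033 for Polg, and mt-Atp8 and mt-Atp6 became tied across libraries by construction. In TPM times length the mt-Nd5 share of the messenger RNAs differed by 0.082 percentage points. Median-of-ratios and nuclear scaling shift all genes of a library alike, so those turns are a common shift of values near 0; the cause of the other turns was not tested.

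With a library left out, log2 changes that turned ran from -0.073 to 0.044 for mt-Co2, -0.035 to 0.039 for mt-Nd4l, -0.017 to 0.13 for mt-Rnr1, -0.072 to 0.083 for mt-Rnr2, -0.51 to 0.28 for mt-Tl1, -0.91 to 0.029 for mt-Ts1, -0.12 to 0.023 for Polrmt, -0.081 to 0.12 for Tfam, -0.083 to 0.060 for Twnk and -0.088 to 0.025 for Polg. The length-weighted share differed by -0.19 to 0.90 percentage points and was lower in PGR-A KO without PGR-A KO 3 or WT 1. Log2 ratios ran from -0.099 to 0.028 for mt-Rnr2 to mt-Rnr1, -0.0064 to 0.041 for complex I to complex IV messenger RNAs and -0.12 to 0.0018 for ribosomal to messenger RNA. Mitochondrial to nuclear log2 ratios ran from -0.052 to 0.026 for complex III and from -0.024 to 0.088 for complex IV. Shares of the messenger RNAs ran from -0.13 to 0.12 for mt-Nd1, -0.074 to 0.057 for mt-Nd5 and -0.0097 to 0.00015 for mt-Nd6. Without a turn, the log2 change ran from 0.042 to 0.23 for mt-Atp8, 0.034 to 0.15 for mt-Atp6 and -0.28 to -0.0065 for mt-Nd6, and the difference in the share of all members from 0.38 to 2.21 percentage points. Over all genes tested the count of calls ran from 0 to 6, and none was a member.

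Same-numbered libraries correlated at 0.36, -0.11, 0.39 and -0.29 after subtraction of the group means. Pairs with different numbers ran from -0.55 to 0.43. So few values cannot tell whether same-numbered libraries share a day or litter, which the labels do not state. With a replicate block limma called 2 genes and 0 members or machinery genes, and the sign-flip p of the share was 0.625, where 0.125 is the smallest possible. Adding near-identical copies could not be done for mt-Atp8, for which no annotated copy was found.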

Other observations

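The level of mt-Nd3 relative to mt-Nd4, a pair chosen after its values were seen and given without a test, was 0.756, 0.728, 0.992 and 0.928 in PGR-A KO 1 to 4 and 0.669, 0.663, 0.669 and 0.688 in WT 1 to 4. The WT libraries lay within a narrow band and all PGR-A KO libraries above it. With the nuclear copy Gm28438 added to mt-Nd3, the ratio was 1.07 ± 0.111 (SD, n = 4) in PGR-A KO and 0.860 ± 0.0402 (SD, n = 4) in WT, and the groups again did not overlap. Among the 13 shares of messenger RNAs, mt-Nd4 and mt-Nd3 had the lowest p, neither passing, so this ratio restates those values and adds no independent support.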
